A study of Mus musculus with 12 samples.

Results

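The MS4A (membrane-spanning 4-domains, subfamily A) family was followed in bone marrow-derived macrophages (BMDM) through 10 listed genes, Ms4a4a, Ms4a4b, Ms4a4c, Ms4a4d, Ms4a6b, Ms4a6c, Ms4a6d, Ms4a7, Ms4a8a and Ms4a14. The members were found by gene symbol among the 56748 Ensembl genes of the count matrix, and all 10 passed the filter on low counts that left 15033 genes for testing. The list was selected on measured values of these same libraries. Ms4a4a had been chosen by its differences with either supernatant, and Ms4a4c by its difference between Ifnb1eGFP and eGFP supernatant. What chose the other 8 members is not recorded, so the effects of IFNβ and supernatant on every member are given as descriptions with no p-value.

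The macrophages were grown from bone marrow of C57BL/6J mice with 20 ng/mL M-CSF and polarized into an M2-like state with 10 ng/mL IL4 for 48 hours, which all 4 conditions shared. They were then kept for 72 hours in unsupplemented medium (untreated control), in medium with recombinant IFNβ (rIFNβ) at 1500 pg/mL, or in medium with diluted supernatant of YUMM5.2 mouse melanoma cells. The Ifnb1eGFP supernatant came from cells carrying a doxycycline (Dox)-inducible Ifnb1 and eGFP vector and was diluted to the same 1500 pg/mL of IFNβ, and the eGFP supernatant came from cells with eGFP alone and was diluted at the same ratio. Both tumor cell lines had received 1 µg/mL Dox for 72 hours, so products of the tumor cells, spent medium and residual Dox cannot be told apart in a supernatant effect. Each condition had 3 libraries of bulk RNA sequencing, and 2 questions were asked of each member: how it differed with IFNβ and how it differed with supernatant. RNA of a whole culture was measured, so a change in the number of cells of a type and a change in RNA per cell cannot be told apart.

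MS4A proteins cross the membrane several times and sit beside other receptors at the surface of blood and immune cells. The family is best known for CD20 (Ms4a1), the B cell antigen, and for the beta chain of the high-affinity IgE receptor of mast cells (Ms4a2), while Ms4a4a, Ms4a7 and the Ms4a6 genes are known from macrophages and microglia. The human gene cluster carries variants linked to Alzheimer's disease risk and to soluble TREM2. Type I interferon signals through Ifnar1 and Ifnar2 to transcription factors that bind the interferon-stimulated response element, and IL4 signals through Stat6.

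The 12 libraries held between 31526034 and 45348457 counts each. The macrophage markers Adgre1, Csf1r, Cd68, Itgam, Mrc1 and Mertk summed to between 5740 and 6540 CPM (a gene's count scaled to a common library size) in every library. Within that sum Itgam went from means of 1450 and 1620 CPM in untreated control and eGFP supernatant to 323 and 409 CPM with rIFNβ and Ifnb1eGFP supernatant, and Cd68 from 1240 and 1290 CPM to 1750 and 1640 CPM. The 5 B cell markers summed to between 0.604 and 0.804 CPM without IFNβ and between 1.17 and 1.63 CPM with it, and the 8 T and NK cell markers to at most 1.29 CPM. The 6 mast cell and basophil markers summed to between 0.1 and 0.263 CPM without IFNβ and between 1.11 and 2.58 CPM with it, carried by Hdc, while Mcpt4 and Tpsb2 were at 0 in every library. The 8 granulocyte and progenitor markers went from 4.28 to 5.82 CPM without IFNβ to between 0.267 and 0.985 CPM with it, carried by S100a8, and the 4 dendritic cell markers from 1.54 to 2.03 CPM to between 0.348 and 0.697 CPM. The 5 melanocyte and melanoma markers stayed between 0.223 and 0.81 CPM. The part of these low levels in the members' differences was not tested. One library stood apart: eGFP supernatant replicate 2 had Irf7 at 45.2 CPM, against 11.0 and 6.63 CPM in replicates 1 and 3 and between 5.25 and 11.3 CPM in untreated control, and Ifit1 at 57.5 CPM, against 10.5 and 3.24 CPM. Values of single members that use this library are therefore also given without it where they moved, while medians over genes include it.

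The 21 Ms4a genes of the mouse lie together on chromosome 19 (GRCm39, chr19:10939657-11618215), and the 10 members span chr19:11044835-11582213. Several members are close copies of each other in coding sequence, and 2 pairs also share much of their promoters. The coding sequence of Ms4a4b, at chr19:11412557-11444419 on the plus strand, matched that of Ms4a4c, at chr19:11382131-11404610 on the same strand, at 91.7% of 678 aligned bases. That of Ms4a6b, at chr19:11493876-11508620, matched that of Ms4a6c, at chr19:11446718-11462204, at 85.4% of 642 aligned bases, both on the plus strand. Ms4a4d was as close, matching Ms4a4c at 87.9% and Ms4a4b at 85.6% of 668 aligned bases, and Ms4a6d matched Ms4a6b at 81.2% of 730. For the first 2 pairs the likeness extended into the promoters, which are shown because the members of each pair were read side by side below. The 250 bases before a RefSeq start of each gene are given 5′ to 3′ (GRCm38.p6, plus strand). This start need not be the gene boundary given above, which is from another annotation and build. Capitals mark bases that a local alignment paired with the same base in the other gene of the pair.
Ms4a4b, chr19:11443308-11443557: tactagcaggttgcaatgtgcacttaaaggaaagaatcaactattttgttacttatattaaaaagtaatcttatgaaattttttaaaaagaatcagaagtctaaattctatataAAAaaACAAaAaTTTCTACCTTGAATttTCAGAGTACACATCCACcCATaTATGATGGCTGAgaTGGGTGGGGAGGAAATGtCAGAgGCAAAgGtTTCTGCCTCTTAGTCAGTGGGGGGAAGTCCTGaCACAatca
Ms4a4c, chr19:11407411-11407660: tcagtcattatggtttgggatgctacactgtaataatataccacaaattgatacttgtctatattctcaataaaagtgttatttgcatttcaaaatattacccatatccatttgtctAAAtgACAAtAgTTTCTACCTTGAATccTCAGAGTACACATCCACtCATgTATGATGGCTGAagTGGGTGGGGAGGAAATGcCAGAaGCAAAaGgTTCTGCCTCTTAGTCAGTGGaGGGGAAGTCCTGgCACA
Ms4a6b, chr19:11518309-11518558: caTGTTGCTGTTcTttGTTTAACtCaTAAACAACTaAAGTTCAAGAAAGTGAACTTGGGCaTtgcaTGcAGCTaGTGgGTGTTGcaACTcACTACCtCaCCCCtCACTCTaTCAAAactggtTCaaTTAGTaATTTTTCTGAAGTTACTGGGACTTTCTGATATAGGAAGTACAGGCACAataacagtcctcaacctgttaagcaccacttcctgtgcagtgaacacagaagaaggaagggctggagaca
Ms4a6c, chr19:11469118-11469367: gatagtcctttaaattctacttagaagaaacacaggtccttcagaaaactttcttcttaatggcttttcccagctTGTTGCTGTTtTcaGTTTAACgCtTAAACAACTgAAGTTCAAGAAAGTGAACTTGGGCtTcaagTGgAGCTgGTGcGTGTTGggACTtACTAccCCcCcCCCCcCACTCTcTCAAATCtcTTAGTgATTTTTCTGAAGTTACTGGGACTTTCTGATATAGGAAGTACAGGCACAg
Of the bases aligned, 117 of 132 were the same between Ms4a4b and Ms4a4c (88.6%) and 148 of 172 between Ms4a6b and Ms4a6c (86.0%). The next most similar pair of member promoters, Ms4a4a and Ms4a4b, had a local alignment score of 13 against 99 and 112 for these pairs. The promoter of Ms4a4a, the member with the largest supernatant effect, is shown for comparison, in lower case throughout.
Ms4a4a, chr19:11375238-11375487: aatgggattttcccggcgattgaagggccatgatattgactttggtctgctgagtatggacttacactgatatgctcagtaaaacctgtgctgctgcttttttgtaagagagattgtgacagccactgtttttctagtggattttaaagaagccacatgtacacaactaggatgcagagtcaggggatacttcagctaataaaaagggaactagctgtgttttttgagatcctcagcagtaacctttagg

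Short motifs were searched on both strands of the 10 promoters of 9 members, with Ms4a7 represented by 2 starts and Ms4a6d having no entry. The interferon-stimulated response element (GAAA and GAAA with any 2 bases between) was in 0 of these 10 promoters and in 2.98% of all 32851 promoters of 250 bases. The PU.1 and IRF composite (GGAA and GAAA with any 2 bases between) was in 0 of 10 and in 2.3% of all. The Stat6 spacing (TTC and GAA with any 4 bases between) was in 1 of 10, a promoter of Ms4a7, and in 5.85% of all, or, with the 50 bases after the start added, in 2 of 10 (Ms4a6b and Ms4a7) and in 6.95% of all. A shorter stretch, GAAANNGAA, which every copy of the response element also holds, was searched after the sequences had been read and was found in both promoters of Ms4a7 and in those of Ms4a6b and Ms4a6c, where it reads GAAAGTGAA inside the stretch that the pair shares, and in 7.13% of all promoters. A match of letters is no evidence of binding.

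Without added IFNβ or supernatant, M2-like BMDM expressed mainly 2 members. Per kilobase of union exon length, Ms4a6d was at 71.3 ± 1.22 CPM (SD, n = 3) and Ms4a7 at 67.2 ± 3.35 CPM, together making up most of the members' sum of 163 ± 4.25 CPM per kb. Ms4a14 followed at 10.8 ± 0.355, Ms4a6c at 7.14 ± 0.51, Ms4a4a at 4.12 ± 0.385 and Ms4a6b at 2.42 ± 0.306 CPM per kb. Ms4a4c, at 0.218 ± 0.026 CPM per kb, and Ms4a4b, Ms4a4d and Ms4a8a, each under that, were close to absent. With rIFNβ the sum was 1060 ± 45.3 CPM per kb, and with Ifnb1eGFP supernatant 1210 ± 134 CPM per kb. The eGFP supernatant stood at 217 ± 5.82 CPM per kb, above the range of untreated control.

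The make-up of the family shifted with IFNβ. Ms4a6d held 43.7% ± 1.07 and Ms4a7 41.2% ± 1.01 of the members' sum per kb in untreated control, and 22.7% ± 0.595 and 21.1% ± 0.683 with rIFNβ. Ms4a4c went the other way, from 0.134% ± 0.0133 to 25.6% ± 1.59, and Ms4a6b from 1.49% ± 0.206 to 13.8% ± 0.0744. With rIFNβ the order per kb was therefore Ms4a4c at 271 ± 28.5 CPM and Ms4a6d at 239 ± 4.1 CPM, which changed places per kb of longest transcript (291 and 293 CPM), then Ms4a7 at 223 ± 4.51 CPM and Ms4a6b at 146 ± 5.63 CPM. Ms4a4c and Ms4a6d did not differ beyond their spread with Ifnb1eGFP supernatant, where they stood at 285 ± 51.2 and 296 ± 27.3 CPM per kb. The length used decided the order of Ms4a6b and Ms4a6c. With rIFNβ, Ms4a6c was at 117 ± 6.2 CPM per kb of union exon length, under Ms4a6b, and at 200 ± 10.6 CPM per kb of its longest transcript, above Ms4a6b at 153 ± 5.93.

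**Figure D1:**
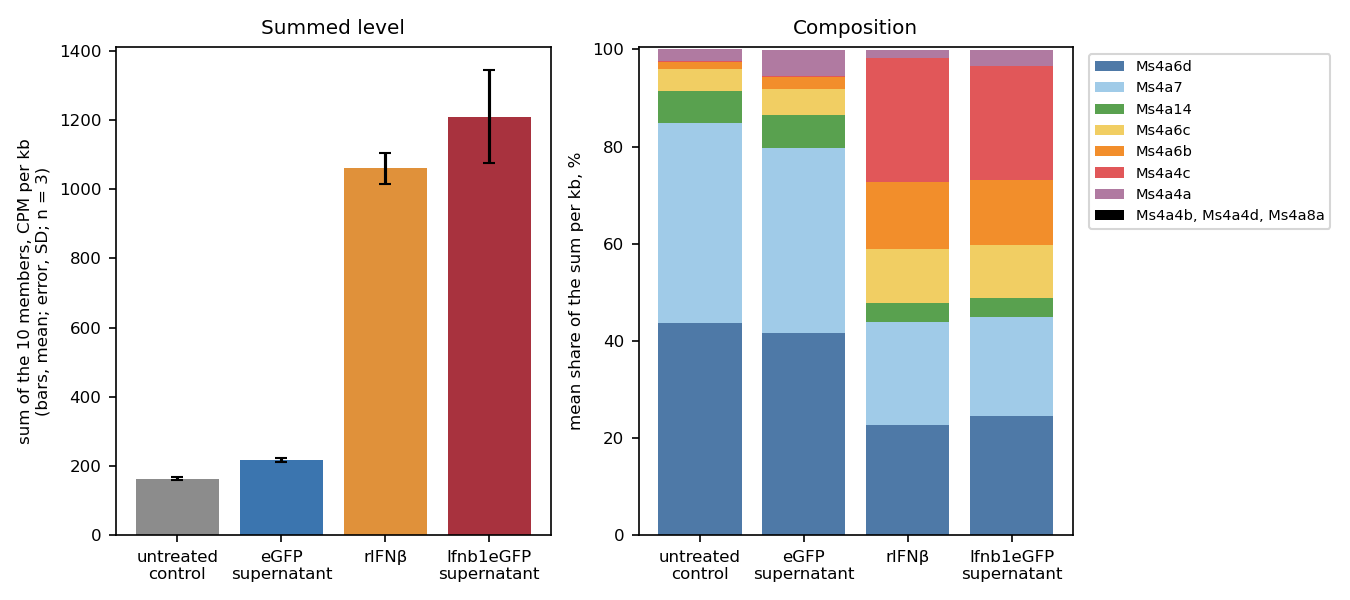
Left, summed level of the 10 members in CPM per kb of union exon length (bars, mean; error bars, SD; n = 3 libraries per condition); right, mean share of each member in that sum, in percent (Ms4a4b, Ms4a4d and Ms4a8a together). The sum was 163 CPM per kb in untreated control and 1210 with Ifnb1eGFP supernatant, and the share of Ms4a4c was 0.134% in untreated control and 25.6% with rIFNβ.

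All 10 members were higher with IFNβ, in the comparison of Ifnb1eGFP with eGFP supernatant as in that of rIFNβ with untreated control. In each comparison the 3 libraries with IFNβ lay above the 3 without it for 10 of 10 members, where 32.4% of all genes tested were higher without overlap between the supernatants and 36.4% between rIFNβ and control. With genes called at 0.05 or less of edgeR's adjusted p (quasi-likelihood test), 10 of 10 members were called higher in both comparisons, beside 30.1% and 30.7% of all genes tested, and since earlier results of these contrasts chose members, nothing is read from these counts. Under a stricter threshold (log2 fold change 2 or more in size, adjusted p 0.01 or less), 6 and 7 members were called, beside 5.39% and 5.77% of all genes, and with both comparisons averaged 10 of 10 were higher, beside 36.1%. The median log2 fold change of the members was 3.20 with supernatant and 3.81 without, or 2.38 and 2.20 with 2 members of very low count at their lower bounds, where that of all genes tested was 0.03 and 0.04.

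**Figure D2:**
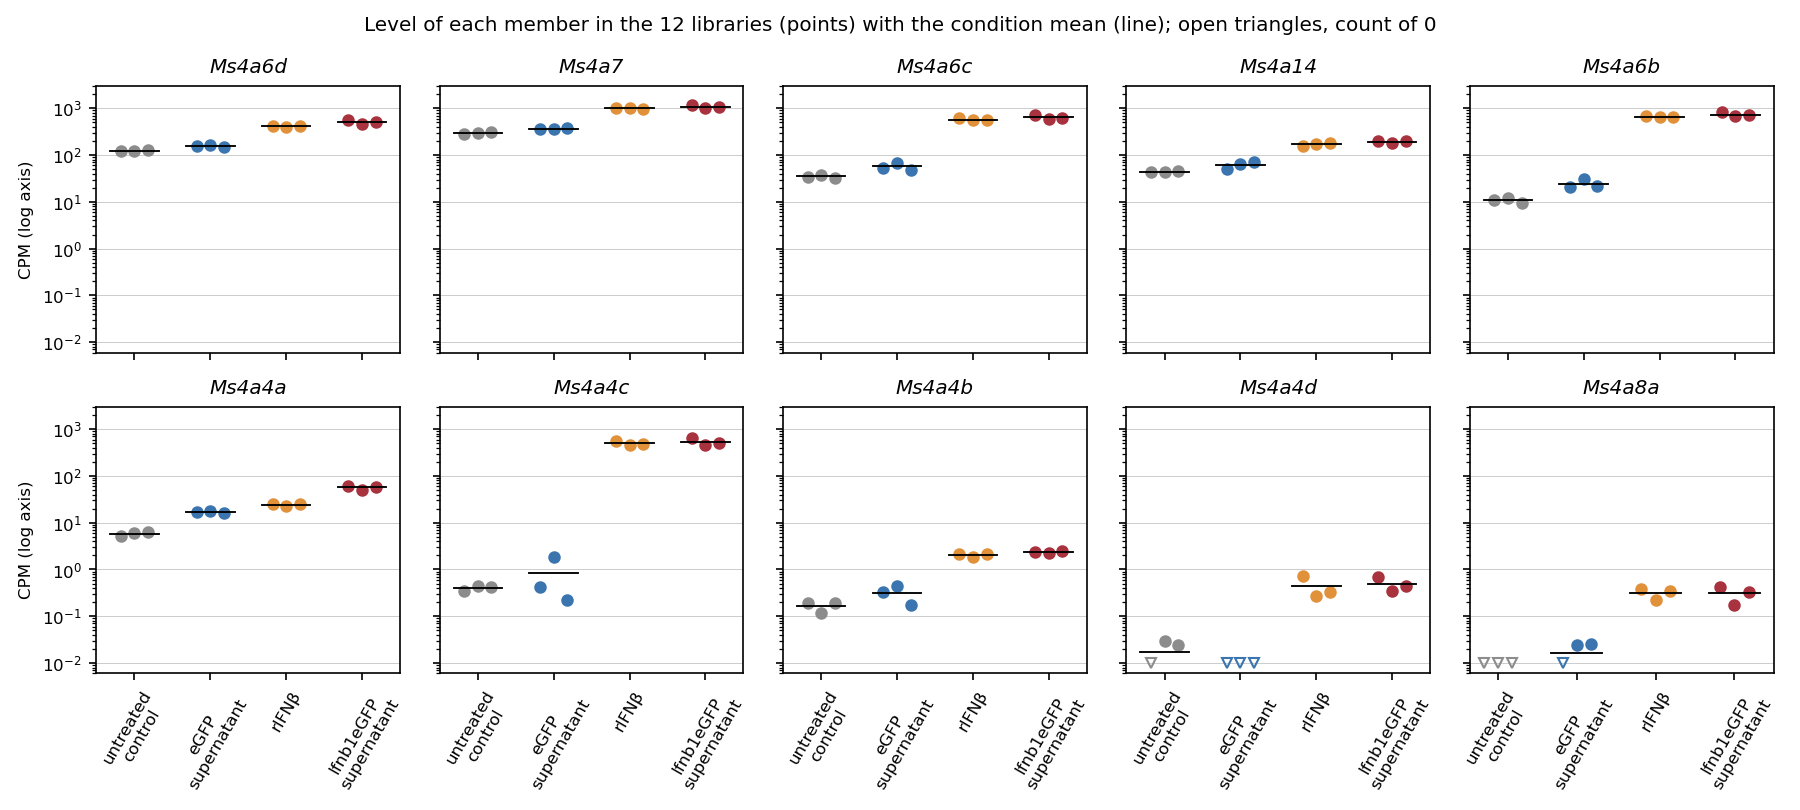
Level of each member in CPM on a log axis in each of the 12 libraries (points, coloured by condition), with the condition mean as a line and open triangles at libraries with a count of 0. The IFNβ libraries lie above the others for every member, and the 4 conditions of Ms4a4a are widely spaced, at means of 5.86, 16.9, 24.2 and 57.3 CPM.

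Ms4a6d, Ms4a7 and Ms4a14, the members most abundant in untreated macrophages, rose least. Ms4a6d, on the minus strand at chr19:11563968-11582213, had 124, 122 and 126 CPM in the untreated control libraries and 422, 408 and 415 CPM with rIFNβ. With eGFP supernatant it had 157, 162 and 152 CPM, and it had 565, 471 and 506 CPM with Ifnb1eGFP supernatant. Its 4 conditions did not overlap, and its log2 fold change with IFNβ was 1.75 (SE 0.0608) without supernatant and 1.71 (SE 0.0606) with it. Ms4a7, a surface protein of mature macrophages, stood at 283, 304 and 312 CPM in untreated control and, with eGFP supernatant, at 363, 358 and 382 CPM. It reached 1010, 994 and 972 CPM with rIFNβ and 1180, 1040 and 1060 CPM with Ifnb1eGFP supernatant, the highest CPM of any member. The log2 fold changes of Ms4a7 were 1.73 (SE 0.0587) and 1.57 (SE 0.0584), and its 4 conditions too did not overlap. Ms4a14, whose single annotated transcript encodes 1232 codons against 217 to 290 in the other members, had 42.7, 43.5 and 45.5 CPM in untreated control and 158, 176 and 178 CPM with rIFNβ. With eGFP supernatant it had 49.7, 63.1 and 69.8 CPM and with Ifnb1eGFP supernatant 202, 178 and 201 CPM. It was thus close to Ms4a6d and Ms4a7 in size of change, with log2 fold changes of 1.96 (SE 0.108) and 1.67 (SE 0.106).

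Ms4a4c showed the largest difference among the members. It had 0.35, 0.439 and 0.426 CPM in untreated control, from 11 to 18 counts, and 561, 457 and 491 CPM with rIFNβ, from 18907 to 20329 counts. With eGFP supernatant it had 0.429, 1.88 and 0.226 CPM and with Ifnb1eGFP supernatant 633, 449 and 501 CPM. Low libraries were thus all under 2 CPM and high ones at 449 CPM or more. The log2 fold change was 10.26 (SE 0.458) without supernatant and 9.27 (SE 0.42) with it, and each ranked 4 of 15033 genes by size. The rank with supernatant is a description only, since that difference had chosen Ms4a4c. The high value of 1.88 CPM belonged to eGFP supernatant replicate 2, and without that library the difference with supernatant was 10.64 (SE 0.263).

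The Ms4a6 pair rose strongly from a low to moderate level. Ms4a6b had 11.1, 12.2 and 9.49 CPM in untreated control and 687, 639 and 647 CPM with rIFNβ. With eGFP supernatant it had 21.1, 30.1 and 21.6 CPM and with Ifnb1eGFP supernatant 822, 670 and 703 CPM. Its log2 fold change with IFNβ was 5.91 (SE 0.164) without supernatant and 4.91 (SE 0.154) with it, or 5.10 (SE 0.128) without eGFP supernatant replicate 2. Ms4a6c started higher, at 34.8, 37.5 and 32.5 CPM in untreated control, and with eGFP supernatant it had 53.5, 69.2 and 48.5 CPM. It ended at 610, 556 and 558 CPM with rIFNβ and 735, 600 and 623 CPM with Ifnb1eGFP supernatant, a level near that of Ms4a6b. Its log2 fold changes were 4.04 (SE 0.136) and 3.51 (SE 0.132), and 3.68 (SE 0.11) with supernatant when the same library was left out.

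Ms4a4a, which in macrophages is known as a partner of the beta-glucan receptor Dectin-1, had 5.28, 5.94 and 6.36 CPM in untreated control and 24.9, 23.2 and 24.5 CPM with rIFNβ. With eGFP supernatant it had 16.9, 17.6 and 16.2 CPM, and it had 61.8, 51.1 and 58.9 CPM with Ifnb1eGFP supernatant. The log2 fold change with IFNβ was 2.04 (SE 0.0878) without supernatant and 1.76 (SE 0.0807) with it, close to that of Ms4a14, and its 4 conditions did not overlap. The gene lies on the plus strand at chr19:11352823-11370154.

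The remaining members stayed low even with IFNβ. Ms4a4b, a gene known from T cells, had 0.191, 0.117 and 0.189 CPM in untreated control and, with eGFP supernatant, 0.328, 0.439 and 0.176 CPM, then 2.11, 1.84 and 2.15 CPM with rIFNβ and 2.35, 2.23 and 2.43 CPM with Ifnb1eGFP supernatant. Its log2 fold change was 3.58 (SE 0.281) without supernatant and 2.88 (SE 0.25) with it, or 3.20 (SE 0.262) without eGFP supernatant replicate 2. Ms4a4d had 0, 1 and 1 counts in untreated control, 0 in every eGFP supernatant library, 24, 12 and 13 counts with rIFNβ and 27, 14 and 20 with Ifnb1eGFP supernatant. Set against a floor of 3 counts in each library, it was at least 5.15-fold higher with rIFNβ and at least 6.53-fold higher with Ifnb1eGFP supernatant. These bounds cover counting error and not reads that may come from its close copies. Ms4a8a, described before in alternatively activated and tumor-associated macrophages, had 0 counts in every untreated control library and 0, 1 and 1 with eGFP supernatant. With rIFNβ it had 13, 10 and 14 counts and with Ifnb1eGFP supernatant 17, 7 and 15, at least 3.79-fold and at least 4.15-fold higher. At such counts a supernatant effect on Ms4a4d or Ms4a8a without IFNβ was not detectable.

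Supernatant without IFNβ gave smaller differences. Between eGFP supernatant and untreated control, 6 of 10 members were higher without overlap, namely Ms4a4a, Ms4a6b, Ms4a6c, Ms4a6d, Ms4a7 and Ms4a14, where 7.96% of all genes tested were. By the same test 4 members were called higher, Ms4a4a, Ms4a6b, Ms4a6c and Ms4a6d, beside 0.246% of all genes tested, and 2 of these, Ms4a4a and Ms4a6b, were called without eGFP supernatant replicate 2. The call of Ms4a6c was lost when any 1 of 9 libraries was left out, and that of Ms4a6d when any 1 of 10 was. At the stricter threshold 0 members were called, beside 0.00665% of all genes. The median log2 fold change of the 8 members above the floor was 0.81, where that of all genes was 0.0. This median includes eGFP supernatant replicate 2, without which several members were lower, as given below. No more is read from these counts, since this contrast too had singled out Ms4a4a.

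Ms4a4a had the largest log2 fold change with eGFP supernatant among the members above the floor, 1.52 (95% interval 1.33 to 1.72), and 1.49 (SE 0.0979) without replicate 2. Since differences with supernatant had chosen Ms4a4a, its rank and interval describe these libraries and test nothing. Its 3 eGFP supernatant libraries, 16.9, 17.6 and 16.2 CPM, were close together, so the library with raised interferon genes did not stand out in Ms4a4a. Ms4a6b followed at 1.15 (95% interval 0.84 to 1.47), and there replicate 2 did stand out, at 30.1 CPM against 21.1 and 21.6 CPM. Without it the value was 0.97 (SE 0.11). Ms4a6c went from 0.71 (95% interval 0.44 to 0.98) to 0.54 (SE 0.0957) in the same way. Ms4a14, at 0.47 (95% interval 0.24 to 0.70), Ms4a6d, at 0.34 (0.21 to 0.47), and Ms4a7, at 0.30 (0.17 to 0.42), moved little without that library, to 0.44, 0.32 and 0.32. Ms4a4b was at 0.91 (95% interval 0.17 to 1.64) with overlapping libraries and at 0.59 without replicate 2. The value of Ms4a4c turned from 1.06 (95% interval -0.43 to 2.55) to -0.31 (SE 0.473), so its direction rested on that library.

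**Figure D3:**
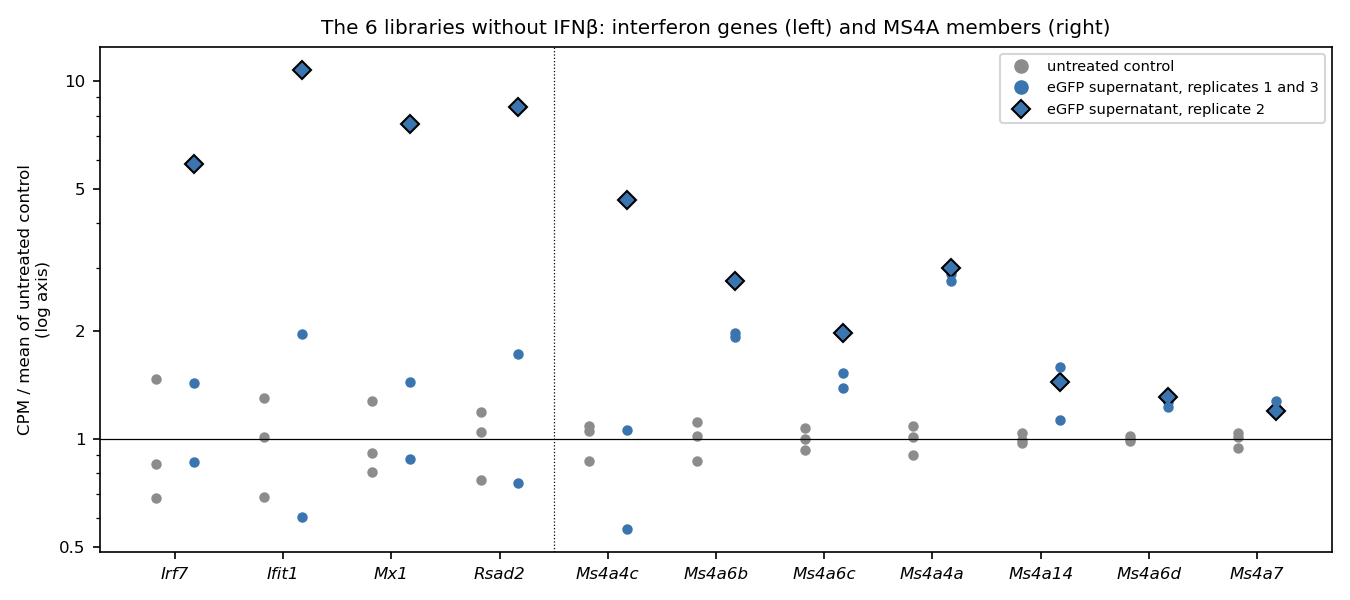
CPM of 4 interferon genes and 7 members in each of the 6 libraries without added IFNβ, divided by the mean of the 3 untreated control libraries (log axis); eGFP supernatant replicate 2 is drawn as a diamond. That library is far above the others for the interferon genes and Ms4a4c, at 1.88 CPM against 0.429 and 0.226, and level with the other eGFP supernatant libraries for Ms4a4a, at 17.6 CPM against 16.9 and 16.2.

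With IFNβ present the supernatant difference of Ms4a4a was also the largest among the members. Since differences with either supernatant had chosen Ms4a4a, this is no independent repeat. Between Ifnb1eGFP supernatant and rIFNβ, at the same IFNβ concentration, 1 of 10 members was called higher, Ms4a4a, beside 0.14% of all genes tested, and 5 of 10 were higher without overlap, namely Ms4a4a, Ms4a4b, Ms4a6d, Ms4a7 and Ms4a14, where 8.22% of all genes were. At the stricter threshold 0 members and 0.0% of all genes were called, and with both supernatant comparisons averaged 5 members were higher (Ms4a4a, Ms4a6b, Ms4a6c, Ms4a6d and Ms4a7), beside 0.692%, or 4, Ms4a7 being lost, without eGFP supernatant replicate 2. Ms4a4a differed by a log2 fold change of 1.24 (95% interval 1.07 to 1.42), a ratio of 2.37. Ms4a6d differed by 0.31 (95% interval 0.18 to 0.44), Ms4a14 by 0.18 (-0.04 to 0.41) and Ms4a7 by 0.13 (0.01 to 0.26). Ms4a6b, at 0.15 (95% interval -0.13 to 0.44), Ms4a6c, at 0.18 (-0.08 to 0.44), and Ms4a4c, at 0.07 (-0.52 to 0.65), had overlapping libraries. Relative to its IFNβ effect averaged over both backgrounds, the averaged supernatant effect of Ms4a4a was 0.727 on the log2 scale, and in Ms4a4b, the Ms4a6 genes, Ms4a7 and Ms4a14 this ratio ran from 0.118 in Ms4a6c to 0.189 in Ms4a6d. Ms4a4c gets no ratio, since its averaged supernatant effect went from 0.56 to -0.12 without eGFP supernatant replicate 2. The ratios of the other members include that library. Without it the averaged supernatant effect was 0.40 in Ms4a4b (from 0.56), 0.56 in Ms4a6b (from 0.65) and 0.36 in Ms4a6c (from 0.45). It was 0.31 in Ms4a6d and Ms4a14 (from 0.33), 1.37 in Ms4a4a (from 1.38) and 0.23 in Ms4a7 (from 0.22).

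**Figure D4:**
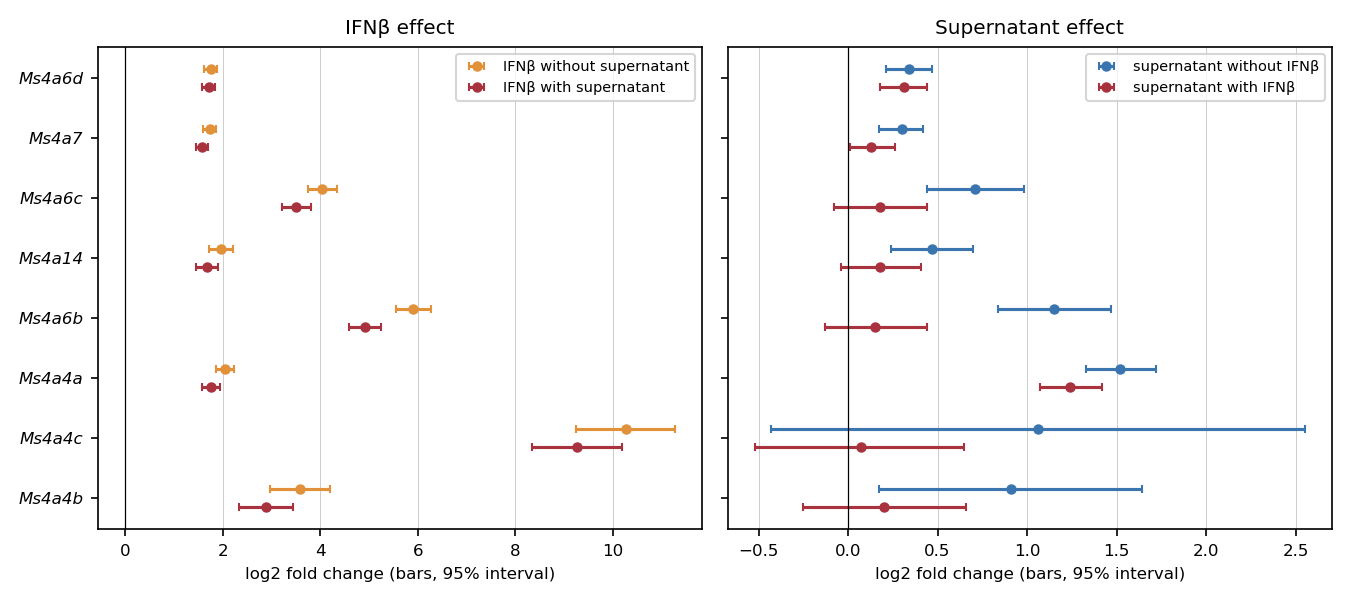
Log2 fold change of 8 members with IFNβ (left) and with supernatant (right), each without and with the other factor, with 95% intervals as bars; Ms4a4d and Ms4a8a are left out because their counts without IFNβ were at the floor. On the right, Ms4a4a stands at 1.52 and 1.24, while Ms4a6b stands at 1.15 without IFNβ and 0.15 with it.

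Whether IFNβ and supernatant combined differently from the sum of their separate effects was tested as an interaction. This contrast is not among those recorded as having chosen members. It is built from contrasts that chose Ms4a4a and Ms4a4c, though, so it is not independent of that choice, and its p-values serve as description. The interaction was negative in all 8 members above the floor, with a median of -0.41 on the log2 scale against -0.01 over all genes. It was not particular to the members, with medians of -0.58 in the 12 interferon pathway genes and -0.53 in the 10 other cluster genes tested, both described below. Each of these values draws on the same eGFP supernatant libraries. Without eGFP supernatant replicate 2 it was 0.38 (SE 0.489) in Ms4a4c and -0.01 (SE 0.0894) in Ms4a6d and negative in the other 6, and in Ms4a6d it was 0.02 without Ifnb1eGFP supernatant replicate 2. In edgeR's test with p-values adjusted by Benjamini-Hochberg 0 of 10 members and 0.0% of all genes tested were called, while 661 of 15033 genes (4.4%) had an unadjusted p under 0.05 and DESeq2 called 16 genes, 1 of them a member. Ms4a6b had the largest interaction for its error, at -1.0 (SE 0.192, unadjusted p = 0.000293, adjusted p = 0.67 by edgeR), rank 6 of all genes by p. It was -0.81 (SE 0.142, adjusted p = 1.0 by edgeR) without eGFP supernatant replicate 2. The interaction of Ms4a6c was -0.52 (SE 0.171) and that of Ms4a4a -0.28 (SE 0.117), each with an edgeR adjusted p of 0.926, and they were -0.36 and -0.25 without that library. In Ms4a6d it was -0.04 (95% interval -0.22 to 0.15).

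The other 11 Ms4a genes of the cluster were near silent. Of these, 6 had no count in any library, which allows up to 3 counts, or 0.0652 to 0.0954 CPM depending on the library. The highest of the other 5 was Ms4a1 with 8 counts in a library, and Ms4a2 and Ms4a3, markers of mast cells and of granulocyte progenitors, reached 4 and 2 counts. The distant relatives Tmem176a and Tmem176b were called in none of the comparisons (0 of 2), with log2 fold changes with IFNβ between -0.11 and 0.21.

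Genes whose proteins are known as partners of MS4A proteins were in no case called higher with IFNβ. Of the 8 listed, 7 were tested, and Fcer1a was not. With IFNβ 3 were lower and 0 higher in each comparison, beside 25.0% of all genes lower with supernatant and 24.6% without. The tetraspanin Cd81 fell by 0.97 and 0.84 on the log2 scale with and without supernatant (edgeR adjusted p = 2.42e-05 and 7.26e-05), and Clec7a, which encodes Dectin-1, fell by 0.68 and 0.58 (edgeR adjusted p = 0.000958 and 0.00269). The remaining call was Tnfrsf18, the gene for GITR, with supernatant (-1.83, edgeR adjusted p = 9.47e-05) and Tyrobp without it (-0.10, edgeR adjusted p = 0.0314). Tnfrsf18 was itself low, with condition means from 0.159 to 0.572 CPM. Trem2 had a mean of 1240 CPM in control libraries and 1260 CPM with rIFNβ, a log2 difference of 0.02 (95% interval -0.25 to 0.28). None of the 7 was called with supernatant.

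The interferon pathway served as a yardstick for the IFNβ effect. Of 12 genes, 11 were higher and 1, the receptor chain Ifnar1, was lower in both comparisons. Beside them 30.1% and 30.7% of all genes tested were higher and 25.0% and 24.6% lower, with and without supernatant. The median log2 fold change of the 12 was 3.22 with supernatant and 3.8 without. The transducer Stat2 had a log2 fold change of 3.69 without supernatant (edgeR adjusted p = 1.33e-06), near that of Ms4a6c. The effectors Irf7 and Ifit1 had 7.89 and 7.07 (edgeR adjusted p = 2.1e-06 and 3.34e-05), under that of Ms4a4c. None of the 12 was called with either supernatant comparison, and their medians there were 0.58 and -0.05. The medians of 3.22 and 0.58 include eGFP supernatant replicate 2, in which Irf7 and Ifit1 were raised. In the IL4 pathway 4 of 7 genes tested were higher with IFNβ in each comparison, namely Il4ra, Chil3, Pparg and Stat6, beside the same shares of all genes. With both comparisons averaged 4 were higher and 1 lower, beside 36.1% of all genes higher. None of the 7 was called with supernatant. Arg1, Mrc1 and Retnla were not called in either single comparison, and Ccl24 and Cd209a were too low to be tested. Arg1 was itself low, with condition means from 0.261 to 0.662 CPM.

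The neighbors of the members were read in the same way. Between the first and last Ms4a gene 17 other genes are annotated, of which 10 were tested, and 6 of these 10 were higher with IFNβ in both comparisons and 0 lower, beside 30.1% and 30.7% of all genes higher. Of these 6, Gm5511, which overlaps Ms4a4b, was at most at 0.151 CPM in any library without IFNβ, and Gm56665 was at the floor there. AW112010, a long noncoding RNA gene next to Ms4a8a, went from 3.78 CPM in untreated control to 68.2 CPM with rIFNβ, a log2 fold change of 4.16 (edgeR adjusted p = 4.03e-10). BE692007, which overlaps Ms4a6c on the opposite strand, rose by 3.15 on the log2 scale with rIFNβ (edgeR adjusted p = 3.93e-08), and how reads were assigned to strands is not given in the sources used here, so part of its count may belong to Ms4a6c. Within 500 kb on either side of the cluster 56 other genes are annotated and 20 were tested, and there 7 were higher, 5 lower and 8 not called with IFNβ in each comparison, beside the same shares higher and 25.0% and 24.6% of all genes lower.

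With supernatant 1 gene of the cluster outside the family was called, the same in both comparisons. Gm56663 starts 49 bases past the annotated end of Ms4a4a on the same strand (chr19:11370203-11370687). Its level was 1.62 ± 0.0869 CPM in untreated control, 4.32 ± 0.82 with eGFP supernatant, 5.70 ± 0.638 with rIFNβ and 14.2 ± 2.83 with Ifnb1eGFP supernatant (SD, n = 3). It thus had the same order of conditions as Ms4a4a. Its log2 fold change with supernatant was 1.41 without IFNβ and 1.32 with it (edgeR adjusted p = 0.0103 and 0.0092). Whether Gm56663 is transcribed apart from Ms4a4a cannot be told from gene counts. Of the 20 genes tested beyond the cluster, 0 were called with supernatant.

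**Figure D5:**
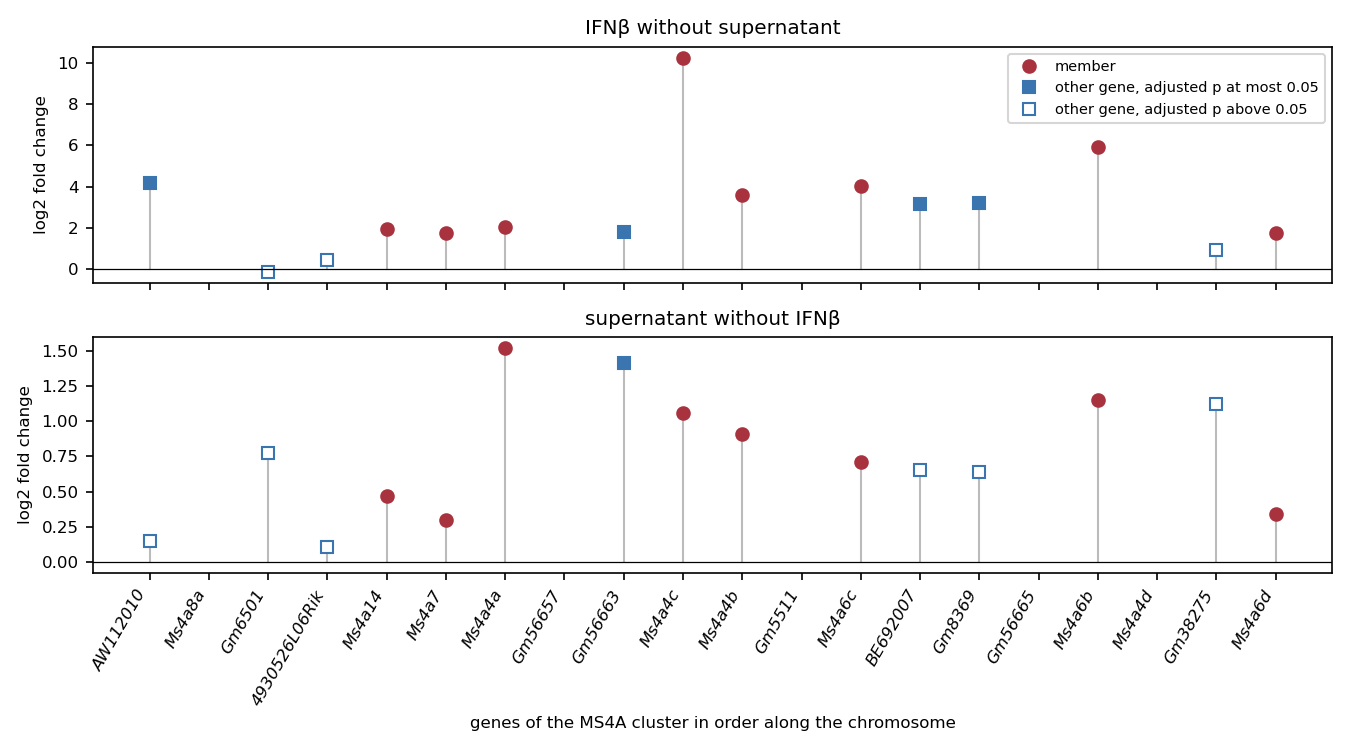
Log2 fold change of the members (circles) and of the other tested genes of the MS4A cluster (squares, filled at an edgeR adjusted p of at most 0.05) in their order along the chromosome, with rIFNβ against untreated control (top) and with eGFP supernatant against untreated control (bottom); positions are blank for genes whose highest CPM in untreated control was at or under that of 3 counts. Values at the top range up to 10.26 in Ms4a4c, and at the bottom Ms4a4a and its neighbor Gm56663 stand at 1.52 and 1.41.

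Likeness of pattern was measured by Pearson's r of log2 CPM over the 12 libraries, which share the contrast of 6 libraries with IFNβ and 6 without. The gene most like Ms4a4a was Gm56663 (r = 0.982), followed by the chemokine receptor gene Cxcr4 (r = 0.974) and the thrombospondin gene Thbs1 (r = 0.974), and 0 genes had an r of at least 0.99. For Ms4a4c 299 genes did, led by Phf11a, Nt5c3 and the interferon-inducible GTPase gene Igtp (r = 0.999 each), so no single gene stood out. For Ms4a6c 267 genes did, led by the Fc receptor gene Fcgr1, Nfxl1 and the Fc receptor gene Fcgr4 (r = 0.998 each), and for Ms4a6b 214 genes did, led by Nfxl1, Polr1h and Cd300lf. With Spearman's rho none of the 3 genes was the same for 7 of the 10 members, Ms4a4a among them, so these names depend on the measure. With Pearson's r of deviations from the condition means, which leaves out the shared contrast, 0 of the 3 genes of Ms4a4a were the same. Ms4a7 was most like Il10ra, Gpr65 and Il10rb (r = 0.998 each), and Ms4a6d most like the complement receptor gene C3ar1 (r = 0.998), Il10ra and Rbms1. Ms4a14 was most like Dclre1c (r = 0.995), Apobec1 and Abcb1a, and Ms4a4b like Cd69 (r = 0.996), Gm57030 and Prr5l. Ms4a8a was most like the DNA sensor gene Aim2 (r = 0.994), Dnajc7 and Gm26797, and Ms4a4d like Ipp (r = 0.993), Rnf121 and Dusp19. Among the members themselves r ran from 0.767 between Ms4a4a and Ms4a4d to 0.999 between Ms4a6b and Ms4a6c, and every r of Ms4a4a with another member was at most 0.902.

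Reads that fit more than 1 member could have been split between close copies. Of the 50-base windows of Ms4a4c transcripts 7.02% occur also in Ms4a4b, and of those of Ms4a4d 4.74%. Of those of Ms4a6d 2.31% and of Ms4a6c 2.4% occur also in Ms4a6b, and of those of Ms4a6b 2.51% occur in Ms4a6c. The expected counts of Ms4a4b, Ms4a4c, Ms4a6c and Ms4a6d were not whole numbers in 12 of 12 libraries, and those of Ms4a6b in 11 of 12. The sum of Ms4a4b and Ms4a4c was whole, within 0.02, in 11 of 12. In the libraries with IFNβ the count of Ms4a4b was between 0.371% and 0.497% of that of Ms4a4c, and without IFNβ between 22.8% and 78.8%. How much of the Ms4a4b count belongs to Ms4a4c is therefore uncertain, and so is its rise with IFNβ. The counts of Ms4a4d were not whole in 1 of 12 libraries, and 0.224% of its windows occur also in Ms4a4c. They reached at most 27, and whether reads of Ms4a4c or Ms4a4b entered them was not tested. Ms4a4a, Ms4a7, Ms4a8a and Ms4a14 share 0 windows with the other members, and their counts were whole in every library.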

How the data were processed

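Total RNA of M2-like BMDM was sequenced with TruSeq Stranded Total RNA libraries (12 libraries, 4 conditions, 3 each). The authors aligned reads with RSEM (v1.3.3) to a reference named GRCm39 mm10, which joins 2 build names, and deposited expected counts per Ensembl gene, neither normalized nor filtered. How RSEM was set for strand is not given in the sources used here. Columns were assigned to conditions by the sample descriptions, and 0 columns were left over.

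Symbols and positions came from GENCODE M39 (GRCm39), which named 56017 of 56748 genes. Expected counts (12% not whole) were rounded and scaled by TMM factors. Genes passing filterByExpr (15033) entered 1 edgeR 4.0.16 quasi-likelihood model in R 4.3.3 over all 12 libraries, and p-values were adjusted by Benjamini-Hochberg over these genes. Genes at 0.05 or less were called. The SE is the log2 fold change divided by the square root of F. CPM values use the TMM-scaled library size, and r a prior count of 2. The procedure was also run on simulated counts, where far fewer genes changed than were called here with IFNβ. That run does not cover scaling when many genes change. Replicate libraries varied beyond counting noise (chi-square divided by its degrees of freedom, 5.34 to 54 in 12 pairs). The series' design text names 3 mice per condition but not whether conditions shared mice, and p-values measure only the spread between these libraries. Lower bounds against 3 counts cover counting error only.

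Coding sequences were aligned globally and promoters locally (Biopython 1.88), the latter for the 8 members with 1 promoter each. Genes named were the members, the other Ms4a genes, listed relatives, partners, pathway genes and neighbors, and the 3 genes most like each member. Members and lists were chosen with earlier results of these data known. Alternatives were DESeq2 1.42.0, RLE factors, no filter, counts not rounded, the replicate number as a block, only the compared conditions, the study's threshold, each library left out, longest transcript, other measures of likeness and a longer promoter window. The shorter promoter motif was chosen after seeing the data. The own values of one gene of the interferon list and one promoter motif are not reported here.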

Additional observations from a re-analysis of the deposited data

How the results depend on the processing

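Taken per member, IFNβ comparison and alternative, the direction held in 557 of 557 refits, and direction and call in 546. These refits reuse the same libraries, and members were listed with earlier results known. The counts therefore describe dependence on the processing and are no further support for a rise with IFNβ. The study's threshold (absolute log2 fold change at least 2, adjusted p at most 0.01) called 6 members and 811 genes for IFNβ with supernatant, 867 genes without it, 6 members and 864 genes averaged, and with supernatant 0 members and 1 gene without IFNβ and 0 and 0 with it and averaged.

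Supernatant counts were less stable. Without IFNβ 4 members and 45 genes were called, against 2 and 22 with only the compared conditions, 6 and 75 with no filter, and 6 and 204 by DESeq2. With IFNβ 1 member and 24 genes were called, against 2 genes with only the compared conditions, 41 with no filter, and 2 members and 115 genes by DESeq2. Averaged, 5 members and 136 genes were called, against 6 members with no filter, and 6 members and 347 genes by DESeq2. The interaction of Ms4a6b was called with no filter (1 gene, -1.02, edgeR adjusted p = 0.0308) and by DESeq2 (16 genes, -0.98, adjusted p = 0.00124), against -1.0 and 0.67, and the range of its adjusted p over all alternatives was 0.00124 to 1.0. The cause was not tested.

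Leaving out 1 library gave 2 to 5 members and 16 to 76 genes for supernatant without IFNβ, 1 to 2 members and 4 to 1051 genes with IFNβ, and 3 to 6 members and 55 to 531 genes averaged. The extremes came without eGFP supernatant replicate 2 (16 genes), Ifnb1eGFP supernatant replicate 1 (76), rIFNβ replicate 1 (4 and 55) and Ifnb1eGFP supernatant replicate 2 (1051 and 531). Without IFNβ the supernatant call of Ms4a6c was lost on leaving out any 1 of 9 libraries, and that of Ms4a6d any 1 of 10. Ms4a4c reversed without eGFP supernatant replicate 2, with supernatant alone (-0.31 to 1.51 over the left-out libraries), in the interaction (-1.44 to 0.38) and averaged (-0.12 to 0.79). With IFNβ its supernatant effect ranged from -0.08, without Ifnb1eGFP supernatant replicate 1, to 0.17, and the interaction of Ms4a6d from -0.1 to 0.02, without Ifnb1eGFP supernatant replicate 2.

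Libraries of the same number deviated together weakly (r from 0.0582 to 0.252 over 18 pairs, 5 of them at most 0.1), yet 12 of 12 libraries correlated best with their own number. A shared mouse or batch behind the number is therefore possible and was not tested, and the main model left the number out. With it as a replicate block 122 genes were called for supernatant without IFNβ, 48 with IFNβ and 252 averaged, with 4, 1 and 6 members, Ms4a14 being the one added, and no other count of members changed. Per kb of longest transcript the members' sums were higher by length alone, at 201, 267, 1270 and 1460 CPM. Depth limited Ms4a4d and Ms4a8a, at most 27 and 17 counts.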
